A study of Mus musculus with 4 samples.

Results

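The genes described here mark vessel lining, mesenchyme and muscle, cell types that do not belong to the neural epithelium. They were followed in neural cells sorted for a green fluorescent protein (GFP) reporter. The set holds 34 genes chosen by name as markers: 15 endothelial, 15 mesenchymal and 4 of skeletal muscle. All 34 had a probe set with a single gene symbol, of 18193 genes represented in this way, and each was read by its probe set of highest mean over the 4 arrays. Of these, 32 passed the filter on low mean signal and were tested among 12740 genes. Tie1 and Erg did not pass and are given as values only.

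The samples were cells from mouse neural tubes at E10.5, taken between the fore- and hindlimbs, dissociated with trypsin and sorted. The Atoh1-GFP cells came from the Atoh1BAC-GFP line, in which a bacterial artificial chromosome carrying Atoh1 drives GFP in the lineage that forms dorsal interneuron 1. The dNeurog1-GFP cells came from the dNeurog1-GFP line, in which a Neurog1 enhancer drives GFP in the dorsal cells that form dorsal interneuron 2. Both lines were on mixed B6SJLF1 and ICR backgrounds, and each population had 2 arrays called biological replicates by the series design. The reporter is a transgene in both lines, all 4 samples passed through a sort, and how closely GFP follows the native gene was not tested. Cells were sorted on either of 2 kinds of machine, and which sample went through which was not given in the sources used here, nor was the number of embryos or whether they were pooled. That the arrays hold GFP-positive cells is a reading of the labels, which leave it unsaid.

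Endothelial cells line blood vessels. They take up vascular endothelial growth factor (VEGF) through the receptors Kdr, Flt1 and Flt4, and angiopoietin through Tek, and they are joined by Pecam1, Esam and Cldn5. In the mouse embryo a vessel plexus surrounds the neural tube, and the somites beside it give rise to sclerotome, dermis and muscle. Pax1 and Pax9 mark the sclerotome, Tcf15 and Meox1 the epithelial somite, and Myf5, Myod1 and Myog drive skeletal muscle formation.

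The 250 bases before a transcript start listed by RefSeq are shown for a pair of endothelial and a pair of mesenchymal genes whose values carry the contrast between the lists, chosen among those for which the RefSeq table used here (GRCm38.p6) lists 1 promoter. Tek (chr4:94739039-94739288) and Emcn (chr3:137340828-137341077) had the largest mean differences among such endothelial genes, and Pdgfra (chr5:75152001-75152250) and Meox2 (chr12:37108290-37108539) the widest gap between replicate numbers among such mesenchymal genes. All 4 lie on the plus strand. Against the outer bounds of the genes in the same build, the Meox2 window lies before the gene, the Tek and Emcn windows run across the outermost start, and the Pdgfra window lies within the gene, before an internal transcript start. Capitals mark AGGAAG, a core sequence bound by ETS factors such as Erg, or its reverse complement CTTCCT. The second sequence searched was the E-box CAGCTG, which reads the same on both strands and which myogenic factors such as Myod1 bind. It was in none of these 4 windows.
Tek: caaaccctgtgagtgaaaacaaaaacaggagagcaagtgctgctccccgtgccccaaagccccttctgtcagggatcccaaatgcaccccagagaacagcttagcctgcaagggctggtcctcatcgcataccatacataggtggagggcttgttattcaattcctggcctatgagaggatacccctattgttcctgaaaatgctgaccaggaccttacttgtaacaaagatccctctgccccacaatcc
Emcn: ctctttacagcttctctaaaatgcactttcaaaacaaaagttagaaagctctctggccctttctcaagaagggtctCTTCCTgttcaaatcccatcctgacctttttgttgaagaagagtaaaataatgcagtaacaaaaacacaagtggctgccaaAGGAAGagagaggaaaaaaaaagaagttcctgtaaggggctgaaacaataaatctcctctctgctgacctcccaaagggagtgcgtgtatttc
Pdgfra: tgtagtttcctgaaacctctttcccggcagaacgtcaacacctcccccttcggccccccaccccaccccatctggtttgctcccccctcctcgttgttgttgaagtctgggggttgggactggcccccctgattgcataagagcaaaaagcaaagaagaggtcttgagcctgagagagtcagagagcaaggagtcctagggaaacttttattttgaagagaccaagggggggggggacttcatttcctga
Meox2: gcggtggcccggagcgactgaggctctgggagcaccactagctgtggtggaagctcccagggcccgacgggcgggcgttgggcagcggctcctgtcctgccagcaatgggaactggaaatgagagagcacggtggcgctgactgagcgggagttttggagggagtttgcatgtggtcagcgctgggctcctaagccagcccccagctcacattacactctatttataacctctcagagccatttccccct

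AGGAAG was present in 2 places in the Emcn window and in none of the other 3 windows. Promoters were listed for 23 of the 34 genes, and for genes with several the one listed first was searched. AGGAAG on either strand was in 5 of 10 endothelial, 3 of 10 mesenchymal and 0 of 3 muscle windows, where 29.2% of 27025 genes with a listed promoter held it. CAGCTG was in 1 of 10, 0 of 10 and 1 of 3, against 12.8% of all. No match overlapped another in the 4 windows shown. These are descriptions of letters, and the array data do not measure binding.

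The sorted cells carried neural RNA at high signal on every array. Signals are MAS5 intensities set here to 1 trimmed mean of 500 on each array. Sox2, a progenitor factor, read 10914 and 8368 in Atoh1-GFP cells, against 12677 and 8442 in dNeurog1-GFP cells, and the neuronal tubulin Tubb3 read 10017 and 13976 against 4644 and 7348. Atoh1 itself had 21412 and 19675 in Atoh1-GFP cells, against 1771 and 1861 in dNeurog1-GFP cells, and Neurog1 had 172 and 176 against 1388 and 2469. Both arrays of each population thus followed their label. The arrays differed at the dim end. The replicate 1 arrays had been deposited at a trimmed mean of 250 and the replicate 2 arrays at 500, and after scaling to 1 target the median probe set of replicates 1 and 2 read 138.1 and 75.97 in Atoh1-GFP cells, against 114.8 and 75.44 in dNeurog1-GFP cells. Dim probe sets therefore read higher on the replicate 1 arrays than on the replicate 2 arrays of either population, and differences are given within each replicate number. Within replicate 1 the median probe set still read higher in Atoh1-GFP cells (138.1 against 114.8). Within replicate 2 it was nearly level (75.97 against 75.44). Differences within replicate 1 thus keep an offset at the dim end, and its part in them was not tested. A log2 difference is that of log2(signal + 32), Atoh1-GFP minus dNeurog1-GFP, on which a change at low signal appears smaller than it is.

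None of the 32 members tested passed an adjusted p under 0.05, in limma without or with the replicate number as a block. Of the 12740 genes, limma without the block called 0.126% higher and 0.0942% lower, and 2.78% and 3.73% with it. Among the 6239 genes tested with a mean signal between 68.0 and 638, the range of the members tested, it called 0% and 0.0321% without the block, and 1.54% and 1.51% with it. At an unadjusted p under 0.05, limma counted 0 members without the block and 9 with it, against 8.59% and 22.5% of all genes and 6.4% and 15.6% of those in the signal range. The 9 were 8 of 13 endothelial, 1 of 15 mesenchymal and 0 of 4 muscle genes tested. By group means, Pecam1, Tek, Sox18 and Pax9, all among the 9, passed the filter through the Atoh1-GFP cells alone. So did Flt1 and Dcn, which were not among the 9. Pecam1 had a mean of 106 in Atoh1-GFP cells, against 30.4 in dNeurog1-GFP cells. Passing in this way limits what the p-values of these genes show. The smallest adjusted p among the members was 0.67 without the block (Eng) and 0.10 with it (Pecam1). The differences below are therefore descriptions of 4 arrays and are not called. What stands out in the values is their arrangement: the endothelial genes were mostly higher in Atoh1-GFP cells at both replicate numbers, whereas the mesenchymal genes were mostly higher within replicate 1 and lower within replicate 2. Neither the difference between the lists nor that between the replicate numbers was tested, since each population has 1 array per number.

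All 34 genes were higher in Atoh1-GFP cells within replicate 1, against 50.9% of all genes tested and 58.1% of those in the signal range. Within replicate 2 only 14 of the 34 were higher, against 48.7% and 47.2%. Of those 14, 12 belonged to the 15 endothelial genes, so 12 of 15 were higher at both numbers, against 33.3% of all genes tested and 33.7% in the signal range. None of the 34 was lower at both numbers, against 33.7% and 28.4%, and none was lower within replicate 1 and higher within replicate 2, against 15.4% and 13.5%. In 10 of the 15 endothelial genes both Atoh1-GFP arrays lay above both dNeurog1-GFP arrays, an arrangement seen in 15.9% of all genes tested and in 16.2% in the signal range. Tie1 and Erg, which did not pass the filter, count in the 10 and in the 12, whereas these shares cover tested genes only. The opposite arrangement was seen in 0 of the 34, against 18.8% and 15.8%. The median log2 difference of the 15 was 1.05 for replicate 1 and 0.26 for replicate 2, 0.65 together, and without the Atoh1-GFP replicate 1 array it was 0.33. Over all genes tested the medians were 0.01 and -0.01, and in the members' signal range 0.09 and -0.03. In such bulk RNA, fewer cells of a type and less RNA per cell cannot be told apart.

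**Figure D1:**
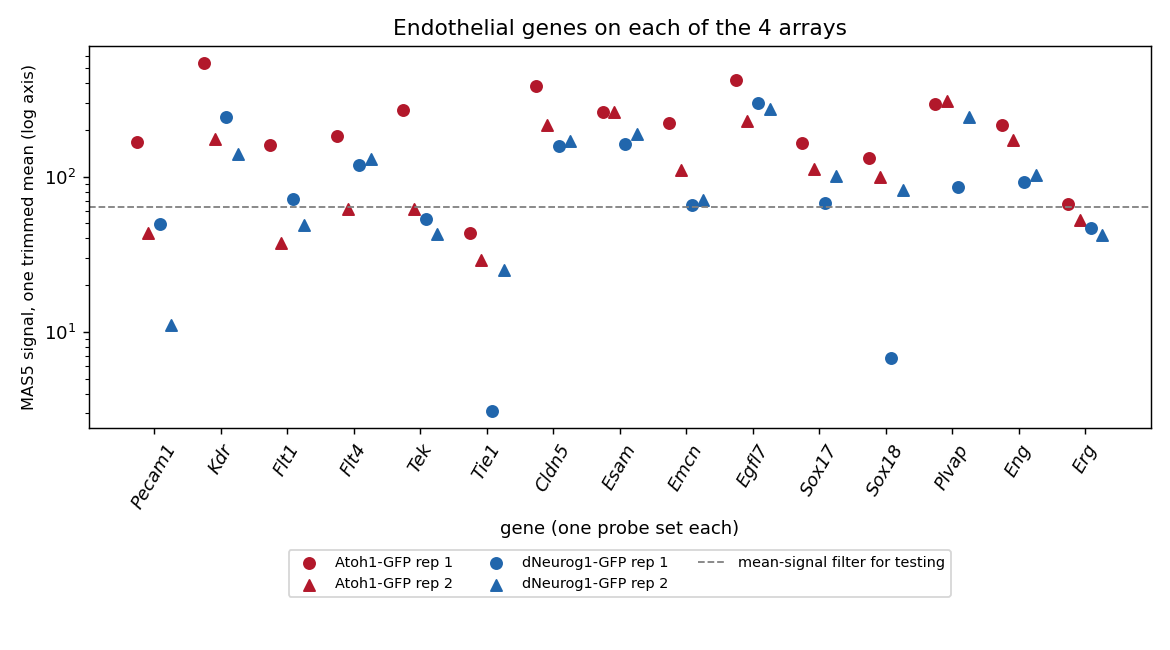
Scaled MAS5 signal (log axis) of the 15 endothelial genes, 1 probe set each, with Atoh1-GFP arrays in red left of dNeurog1-GFP arrays in blue. Circles are replicate 1, triangles replicate 2, and the dashed line is the filter of 63.5 on the mean signal. Atoh1-GFP replicate 1 is the highest array for 14 of the 15 genes, against 26.9% of all genes tested and 38.3% in the members' signal range.

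Among the receptors, Tek, the angiopoietin receptor Tie2, had 268 and 62.2 in Atoh1-GFP cells, against 53.2 and 42.9 in dNeurog1-GFP cells. Its groups did not overlap, but the high value was that of Atoh1-GFP replicate 1, and the log2 difference was 1.82 within replicate 1 and 0.33 within replicate 2 (limma adjusted p = 0.84 without and 0.18 with the block). Kdr, the main signalling receptor for VEGF, had 538 and 175, against 243 and 141. Its groups overlapped, since dNeurog1-GFP replicate 1 read above Atoh1-GFP replicate 2, and its mean difference of 0.65 became -0.077 without the Atoh1-GFP replicate 1 array. Flt1, a VEGF receptor that acts largely as a decoy, had 159.8 and 37.2 against 71.7 and 48.5, higher within replicate 1 and lower within replicate 2 (0.89 and -0.22). Flt4, the VEGF-C receptor, had 183 and 61.5 against 119.7 and 130.4, with 0.50 and -0.80. Tie1, the orphan partner of Tek, was dim throughout, with 43.7 and 29.1 against 3.09 and 25.1. Eng, a co-receptor of the TGF-beta family, did not rest on 1 array. It had 214 and 171 in Atoh1-GFP cells, against 93.1 and 102 in dNeurog1-GFP cells, 0.97 and 0.60 within the replicate numbers (mean 0.79, standard error 0.37 without and 0.25 with the block; adjusted p = 0.67 and 0.13).

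The genes of cell junctions and the vessel surface were likewise higher in Atoh1-GFP replicate 1 than in dNeurog1-GFP replicate 1. Pecam1, a junctional adhesion molecule, had 168 and 43.4 in Atoh1-GFP cells, against 49.8 and 11.1 in dNeurog1-GFP cells. Each Atoh1-GFP array was above the dNeurog1-GFP array of its own number (1.29 and 0.81), though the groups overlapped across numbers. Cldn5, the tight junction claudin of brain endothelium, had 382 and 215 against 159 and 171, with 1.12 and 0.28. Esam, another junctional adhesion molecule, had 262 and 259.5 against 163 and 189, with 0.59 and 0.40. For both genes each Atoh1-GFP array was above each dNeurog1-GFP array. Emcn, a sialomucin of capillary and venous endothelium, had 224 and 110.3 against 66.2 and 71.3 (1.38 and 0.46). Plvap, which forms the diaphragms of fenestrated endothelium, had 297 and 309.5 against 86.1 and 242 (1.48 and 0.32). In Plvap the 2 Atoh1-GFP arrays were close together and the low value was dNeurog1-GFP replicate 1. Egfl7, a secreted endothelial factor, had 422 and 227 against 299 and 274, with overlapping groups and differences of 0.46 and -0.24.

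Of the endothelial transcription factors, Sox18 had 131 and 100.0 in Atoh1-GFP cells, against 6.82 and 82.6 in dNeurog1-GFP cells. Its difference of 2.07 within replicate 1, the largest among the 34 genes, rested on the dNeurog1-GFP replicate 1 array, and it was 0.20 within replicate 2. Sox17, its relative in the SoxF group, had 165 and 112 against 68.2 and 101 (0.98 and 0.11). The ETS factor Erg was below the filter, with 67.2 and 53.0 against 46.5 and 42.0 (0.34 and 0.20). All 3 had groups that did not overlap, and for Sox17 the closest arrays of the populations read 112 against 101.

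Other probe sets of the same genes did not always show the same values. A second Eng probe set had 70.0 and 35.0 in Atoh1-GFP cells, against 13.9 and 44.8 in dNeurog1-GFP cells, so it was lower within replicate 2. The second Sox17 probe set had 82.5 and 73.3 against 77.2 and 28.3, with its difference in replicate 2 (0.80) and not in replicate 1 (0.07). Of the other 3 Flt1 probe sets, 1 had log2 differences of 1.85 and 0.08 within replicates 1 and 2, another -0.39 and -0.75, and the last 0.06 and -0.21. The direction for Flt1 is therefore not settled by the array. The 4 Egfl7 probe sets differed by 0.18 to 0.46 within replicate 1, all higher in Atoh1-GFP cells, and by between -0.29 and 0.26 within replicate 2.

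Within the 15 mesenchymal genes the order of the arrays was different. All 15 were higher in Atoh1-GFP cells within replicate 1, and 13 of the 15 were lower within replicate 2. That pattern, higher within replicate 1 and lower within replicate 2, was seen in 17.6% of all genes tested and in 24.3% of those in the members' signal range. The populations overlapped in each of the 15. Their median difference was 0.78 for replicate 1 and -0.40 for replicate 2, and 0.16 together, which became -0.35 without dNeurog1-GFP replicate 1 and 0.56 without dNeurog1-GFP replicate 2. The lowest of the 4 arrays was dNeurog1-GFP replicate 1 for 10 of the 15, against 25.0% of all genes tested and 21.9% in the signal range. The highest was Atoh1-GFP replicate 1 for 8, against 26.9% and 38.3%, and dNeurog1-GFP replicate 2 for 6, against 24.0% and 19.6%.

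**Figure D2:**
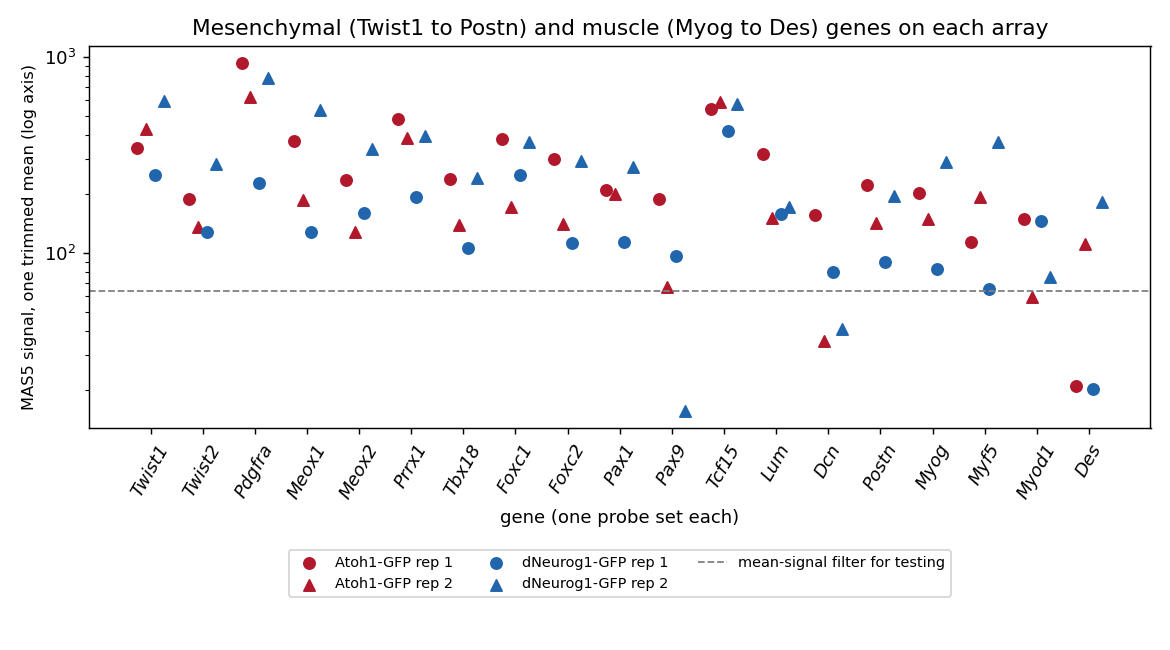
Scaled MAS5 signal (log axis) of the 15 mesenchymal and 4 muscle genes, with Atoh1-GFP arrays in red left of dNeurog1-GFP arrays in blue, circles for replicate 1 and triangles for replicate 2. For Meox1 the blue circle, 128, is the lowest and the blue triangle, 536, the highest of the 4 arrays.

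Pdgfra, the receptor for platelet-derived growth factor in mesenchyme, had 925 and 625 in Atoh1-GFP cells, against 226 and 778 in dNeurog1-GFP cells. The low array was dNeurog1-GFP replicate 1, and the other 3 were within a narrower range. Its log2 difference was 1.89 within replicate 1 and -0.30 within replicate 2 (mean 0.80, standard error 0.52, limma adjusted p = 0.87 without the block). Pdgfra was the only member called under any setting run: without dNeurog1-GFP replicate 2, leaving 1 array for that population, it was 1.62 with limma adjusted p = 0.019. Its 2 other, dimmer probe sets had log2 differences of 0.78 and 0.32 within replicate 1 and -0.77 and -0.19 within replicate 2, and with all 3 averaged the mean difference was 0.29. The homeodomain gene Prrx1, of limb and other mesenchyme, had a like order, with 481 and 384 against 192 and 396 (1.20 and -0.04). Twist1, a basic helix-loop-helix factor of mesenchyme, had 343 and 426 against 249 and 591 (0.42 and -0.44). Twist2, its close relative, had 187 and 136 against 128 and 284 (0.46 and -0.91). In both Twist genes the highest array was dNeurog1-GFP replicate 2 and the lowest dNeurog1-GFP replicate 1, so that the 2 arrays of 1 population spanned both Atoh1-GFP arrays.

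The genes of somite and sclerotome varied in the same way, most widely in Meox1. Meox1, a homeodomain factor of the somite, had 370.2 and 185 in Atoh1-GFP cells, against 128 and 536 in dNeurog1-GFP cells, with differences of 1.33 and -1.39 that nearly cancel (mean -0.03). Meox2 had 236 and 127 against 159 and 337 (0.49 and -1.21). The forkhead genes Foxc1 and Foxc2, which act in somites, meninges and vessels, had 382 and 172 against 249 and 369, and 300.2 and 140.1 against 112 and 293. Within replicate 2 they were lower in Atoh1-GFP cells by log2 differences of -0.98 and -0.92, and within replicate 1 higher by 0.56 and 1.20. Tbx18, a T-box factor of the anterior somite and of mural cells, had 239 and 139 against 106 and 242 (0.97 and -0.68). Pax1, a sclerotome factor, had 208 and 199.9 against 113 and 275 (0.73 and -0.40).

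Pax9 and Tcf15 were the exceptions, each higher in Atoh1-GFP cells at both numbers. Tcf15, a basic helix-loop-helix factor of the epithelial somite, had 543 and 585 against 416 and 576, so the difference within replicate 2 was 0.02. Pax9, the partner of Pax1 in the sclerotome, had 188 and 66.9 against 96.1 and 15.6 (0.78 and 1.06). Its 2 other probe sets were lower in Atoh1-GFP cells within replicate 2 (-0.56 and -0.29), so the exception belongs to 1 of 3 probe sets. The last 3 genes encode matrix proteins. Lum and Dcn, small leucine-rich proteoglycans whose genes are neighbours on chromosome 10, had 318 and 151 against 158 and 170.2, and 156 and 35.3 against 79.7 and 41.0. Postn, a secreted protein of connective tissue, had 222 and 142 against 90.0 and 195 (1.06 and -0.39).

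Among the 4 skeletal muscle genes, dNeurog1-GFP replicate 2 was the highest array for 3, against 24.0% of all genes tested and 19.6% in the signal range. The lowest was dNeurog1-GFP replicate 1 for 3, against 25.0% and 21.9%. Myog, which drives myoblast differentiation, had 201 and 149 in Atoh1-GFP cells, against 82.1 and 289 in dNeurog1-GFP cells (1.03 and -0.83). Myf5, the earliest of the myogenic factors in the somite, had 113 and 191 against 65.1 and 366 (0.58 and -0.83). Myod1 had 148 and 59.6 against 146 and 74.995, and its values separated the replicate numbers and not the populations (0.02 and -0.22). Des, the muscle intermediate filament desmin, separated the numbers the other way. It had 20.8 and 111 in Atoh1-GFP cells, against 20.1 and 182 in dNeurog1-GFP cells, while its second probe set had 92.5 and 30.1 against 92.3 and 38.2. The 2 desmin probe sets thus disagreed on which replicate number was higher, while each was close to level between the populations within replicate 1. Over the 4 muscle genes the median difference was 0.30 for replicate 1 and -0.70 for replicate 2. The median of -0.11 over both numbers became -0.89 without dNeurog1-GFP replicate 1 and 0.79 without dNeurog1-GFP replicate 2.

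**Figure D3:**
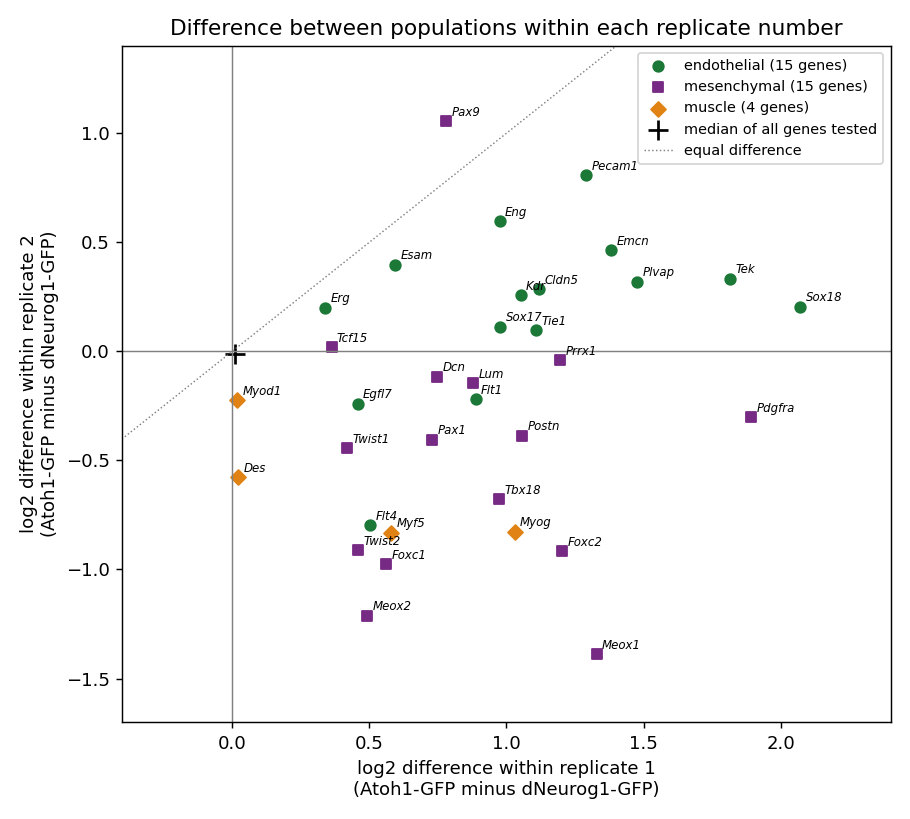
Log2 difference, Atoh1-GFP minus dNeurog1-GFP, within replicate 1 (horizontal) and within replicate 2 (vertical) for each of the 34 genes, with the median of all genes tested as a cross. Every point lies right of 0 within replicate 1, while within replicate 2 12 of 15 endothelial genes lie above 0 and 13 of 15 mesenchymal and all 4 muscle genes below it.

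The summed signal of a list weights its bright genes. The 15 endothelial genes summed to 3525 and 1967 in Atoh1-GFP cells, against 1528 and 1675 in dNeurog1-GFP cells, a ratio of 2.31 within replicate 1 and 1.17 within replicate 2. The sum was thus set apart by 1 array, Atoh1-GFP replicate 1. The 15 mesenchymal genes summed to 5099 and 3514 against 2501 and 5099, so Atoh1-GFP replicate 1 and dNeurog1-GFP replicate 2 were level, and the ratios were 2.04 and 0.689. The 4 muscle genes summed to 483 and 511 against 313 and 911, ratios of 1.54 and 0.561. The 10 neural markers summed to 61626 and 61082 against 43106 and 46413. With the block 4 of them were called higher and 2 lower, against 2.78% and 3.73% of all genes tested. Without the block 0 were called. None of the 34 genes was listed at 0 on any array, and no detection calls were used here. As a gauge of dimness, 12 and 9 of the 15 endothelial genes were above the median probe set of their own array in Atoh1-GFP cells, against 5 and 9 in dNeurog1-GFP cells. For the mesenchymal genes the counts were 15 and 13 against 9 and 13. Of the 12740 genes tested they were 11076 and 11246 against 11230 and 11337. Of the 6239 in the members' signal range they were 4781 and 4940 against 4928 and 5035.

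**Figure D4:**
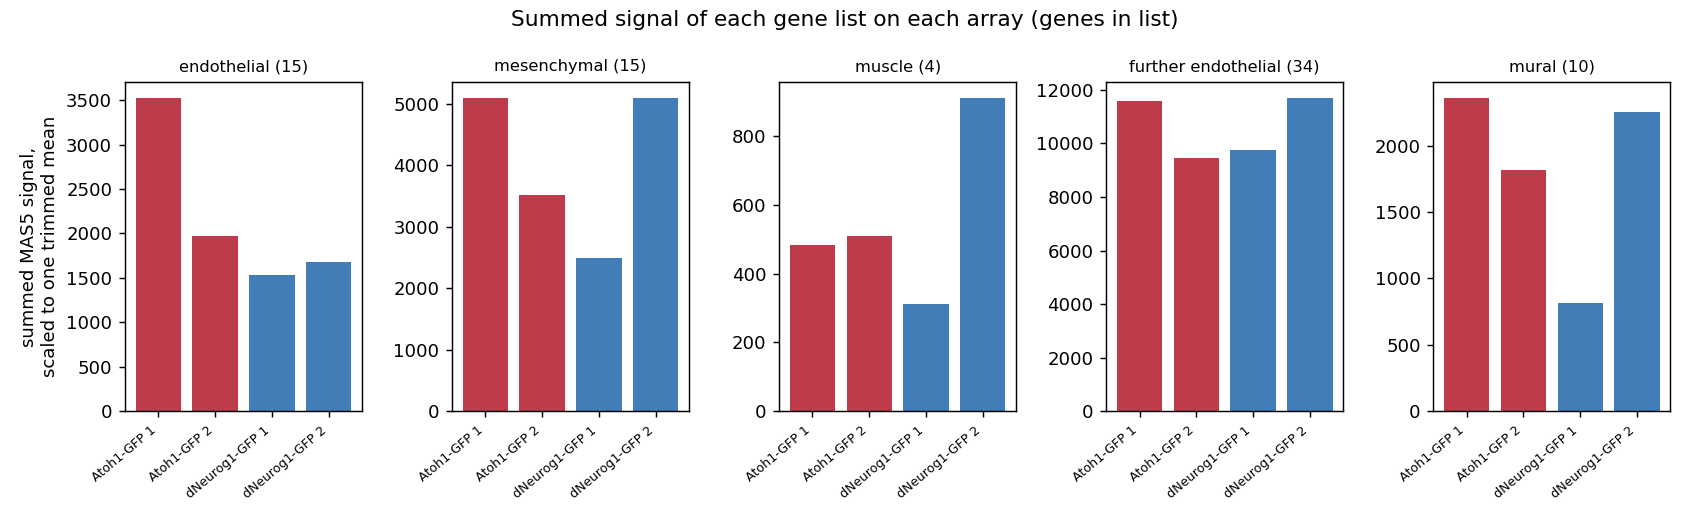
Summed scaled MAS5 signal (linear axis from 0) of 5 gene lists on each array, Atoh1-GFP in red and dNeurog1-GFP in blue, with the number of genes in each list in the panel titles. The endothelial sum is highest on Atoh1-GFP replicate 1 (3525), and the mural sum is lowest on dNeurog1-GFP replicate 1 (813).

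A further list of 34 endothelial genes, none of them members, gave a less even picture. Of these, 27 were tested. Limma called 0 of them without the block and, with it, 0 higher and 3 lower, against 2.78% higher and 3.73% lower of all genes. Both arrays of the Atoh1-GFP cells were above both others for 10 of 34 and below both for 4, arrangements seen in 15.9% and 18.8% of all genes tested. The 34 include genes that did not pass the filter. Their median difference was 0.57 for replicate 1 and 0.01 for replicate 2. Those with the largest difference in 1 direction were Etv2, an ETS factor of early endothelial progenitors (18.4 and 25.5 in Atoh1-GFP cells, against 121 and 101 in dNeurog1-GFP cells; adjusted p = 0.044 with the block), the apelin receptor Aplnr (909 and 1238 against 263 and 856), Cd34 (242 and 187 against 39.4 and 154) and Cd93 (206 and 189 against 79.2 and 79.6). Cd93, a transmembrane protein of endothelial and some blood cells, had log2 differences at the 2 numbers of 1.10 and 0.99 (adjusted p = 0.47 without and 0.062 with the block). Etv2 passed the filter of 63.5 through the dNeurog1-GFP cells alone, where it was high, which limits what its call shows. The other calls with the block were Efnb2 and Nr2f2, the 2 brightest genes of the list, which fell in Atoh1-GFP cells. Efnb2 had 2494 and 2404, against 3595 and 3723 in dNeurog1-GFP cells (limma adjusted p = 0.040), and Nr2f2 737 and 579.6, against 1267 and 1211 (adjusted p = 0.025). Both genes are also expressed by neural tube cells, so the sum of this list does not stand for endothelium alone.

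Mural cells are the pericytes and smooth muscle that cover vessels. The median difference of 10 markers was 0.88 for replicate 1 and -0.11 for replicate 2, and they summed to 2359 and 1814 in Atoh1-GFP cells, against 813 and 2253 in dNeurog1-GFP cells. Pdgfrb, the pericyte receptor for platelet-derived growth factor, had 396 and 320.2 against 122 and 572. Acta2, smooth muscle actin, had 1085 and 1014 against 384 and 976. In both genes the array that stood low was dNeurog1-GFP replicate 1, and 0 of the 5 mural markers tested were called in either model.

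A further 28 genes of mesenchyme, of which 27 had a probe set and 24 were tested, had median differences of 0.46 for replicate 1 and -0.15 for replicate 2. Without the block 0 were called. With it 1 of the 24 was higher and 1 lower, against 2.78% and 3.73% of all genes tested. The higher one was Uncx, a homeodomain gene of the posterior somite and of neurons, with 2123 and 2679 in Atoh1-GFP cells, against 1078 and 1407 in dNeurog1-GFP cells (adjusted p = 0.012 with the block). The lower one was Sox9, with 559.7 and 720.4 against 951 and 1296 (adjusted p = 0.031). Sox9 is a factor of cartilage precursors and also of neural progenitors. Of 15 further muscle genes with a probe set, 12 were tested. Against the same shares of 2.78% and 3.73% with the block, 2 of the 12 were called higher and 1 lower. They were Myl4, a myosin light chain of embryonic muscle and atrium (235 and 594 against 14.4 and 162; adjusted p = 0.014), the troponin Tnnc1, named after its values were seen (366 and 742 against 139 and 420.2; adjusted p = 0.043), and, lower, Lbx1 (143 and 83.3 against 460.5 and 567; adjusted p = 0.016). Lbx1 marks migrating muscle precursors and also dorsal interneurons.

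Blood genes were mostly higher in Atoh1-GFP cells as well. Of the 15 blood genes with a probe set, 11 had both Atoh1-GFP arrays above both dNeurog1-GFP arrays, against 15.9% of all genes tested. The 11 include the blood genes that did not pass the filter, whereas the share covers tested genes only. The other 4 were lower in Atoh1-GFP cells within replicate 1 and higher within replicate 2, against 15.4% of all genes tested. The 15 summed to 32472 and 34161 in Atoh1-GFP cells, against 9054 and 23841 in dNeurog1-GFP cells. The embryonic globin Hbb-bh1 had 6515 and 8107 against 1315 and 5219, and the platelet factor Pf4 had 598 and 988 against 139 and 270.1 (adjusted p = 0.0064 with the block and 0.15 without). Pf4 and Ppbp, another platelet chemokine (116 and 423 against 3.72 and 82.8; adjusted p = 0.012), were the 2 of 11 tested blood genes that limma called with the block, and without it none was called. Of all genes tested, limma with the block called 2.78% higher and 3.73% lower. Ppbp passed the filter through the Atoh1-GFP cells alone, where it was high. The dNeurog1-GFP replicate 1 array was thus low in globin as well as in mesenchymal and mural genes. The 10 heart muscle genes summed to 1229 and 2242 against 508 and 639.5, and here the high array was Atoh1-GFP replicate 2. That array was the highest for 6 of the 10, against 27.1% of all genes tested. Atoh1-GFP replicate 1 was the highest for 3 and dNeurog1-GFP replicate 2 for 1. Myl7 and Myh6 (86.4 and 498 against 35.2 and 19.8) weigh heavily in the sum. The atrial myosin light chain Myl7 had 198 and 735 against 59.3 and 51.2 (adjusted p = 0.039 with the block and 0.25 without), the only call among 7 tested, and it too passed the filter through the Atoh1-GFP cells alone. Surface ectoderm markers had medians of 0.50 and 0.01 within the replicate numbers, and 8 neural crest genes with a probe set had -0.085 and -1.39. With the block 2 of these 8 were lower, Isl1 and Ret, against 3.73% of all genes tested. Neurons of the neural tube and sensory ganglia also express both genes. Isl1 had 639.9 and 566 against 1946 and 5163 (limma adjusted p = 0.018), and Ret 74.7 and 84.9 against 249 and 647 (adjusted p = 0.025). The median within replicate 1 was thus above 0 for every list other than neural crest. It was 0.01 over all genes tested and 0.09 over those in the members' signal range. Several lists hold genes brighter or dimmer than that range, so it does not match them in signal. What part other cell types, the sort, array quality or the dim end of the signal range have in the values of the 34 genes was not tested.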

How the data were processed

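RNA of GFP-sorted cells from 2 transgenic lines was measured on 4 Affymetrix arrays. The authors deposited linear MAS5 signal intensities for each array, per the submitters' processing notes. The MAS5 version was not given in the sources used here. Trimmed means (2% off each end of 45101 probe sets) were 250 on the replicate 1 and 500 on the replicate 2 arrays, a processing batch that holds 1 array of each population, and each array was scaled to 500. The 64 controls were left out. Of the rest, 34945 probe sets had 1 symbol in the platform annotation, 932 several, and 9160 are unnamed here. Each gene was read by its brightest single-symbol probe set and tested where its mean was at or above the 40th percentile (63.5).

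Differences of log2(signal + 32) were fitted with limma 3.58.1 (lmFit, eBayes with trend) in R 4.3.3 over all genes, with Benjamini-Hochberg adjustment and a threshold of 0.05. The fit was made once plainly and once with the number as a block (2 and 1 residual degrees of freedom). The script was run on simulated data in which every gene had the same spread. That run does not gauge the error of dim genes. Deviations of equal numbers from their group means correlated at 0.66 across 12740 genes. The numbers also differ in deposited trimmed mean and at the dim end, and the part of this in the correlation was not tested. The labels do not tie equal numbers to a day or litter. With 2 arrays per population, p-values measure the spread between these arrays.

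The members, further lists and motifs were chosen with earlier results of these data known. Named are all members, Atoh1 and Neurog1, and from each further list some of at most the 4 largest differences in 1 direction at both numbers and the 2 brightest genes. The signal range was added as a background after the values were seen.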

Additional observations from a re-analysis of the deposited data

How the results depend on the processing

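Other settings left every member uncalled: signals as deposited, quantile or 75th percentile scaling, a pseudocount of 16 or 64, no filter on dim genes, all probe sets averaged, no intensity trend and the replicate block each called 0 endothelial, 0 mesenchymal and 0 muscle members. Of 306 member values under these settings 3 changed sign, each near 0: Meox1 (0.039 after quantile normalization), Tbx18 (-0.056) and Myod1 (0.086) with all probe sets averaged. The 306 include the settings without the filter, without the trend and with the block, which reuse the main differences. Member differences and list medians could not move under those settings. Averaging all probe sets also gave smaller values for Pax9 (0.30 in place of 0.92) and Pdgfra (0.29 in place of 0.80). The endothelial median stayed between 0.60 and 0.75, the mesenchymal between 0.11 and 0.18 and the further endothelial between 0.20 and 0.29. Medians nearer 0 moved by over 1.5 times: the muscle median, -0.11, was -0.19 after quantile normalization and -0.020 with probe sets averaged, and the further mesenchyme median, 0.16, was 0.067 and 0.086. The count over all genes, 28, depended on the setting: 11 as deposited, 14 without the filter, 12 with probe sets averaged, 0 without the trend (1094 genes at an unadjusted p under 0.05 with it) and 829 with the replicate block, 354 higher and 475 lower. The labels do not establish pairing.

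Leaving out 1 array in turn mattered more, and the lone array left in a population is then assumed to vary like the others. The count over all genes ran from 153 to 380, and that of mesenchymal members from 0 to 1 (Pdgfra). List medians ran from 0.33 to 0.92 (endothelial), -0.35 to 0.56 (mesenchymal), -0.89 to 0.79 (muscle), 0.01 to 0.57 (further endothelial) and -0.18 to 0.54 (further mesenchyme). The log2 difference changed sign in 21 members, 4 of them endothelial: -0.42 to 1.05 for Dcn, -1.30 to 0.74 for Des, -0.30 to 0.51 for Egfl7, -0.40 to 1.07 for Flt1, -0.75 to 0.46 for Flt4, -0.72 to 0.30 for Foxc1, -0.44 to 0.73 for Foxc2, -0.077 to 1.39 for Kdr, -0.10 to 0.83 for Lum, -0.94 to 0.88 for Meox1, -0.84 to 0.12 for Meox2, -1.14 to 0.89 for Myf5, -0.59 to 0.38 for Myod1, -0.64 to 0.85 for Myog, -0.38 to 0.70 for Pax1, -0.030 to 1.62 for Pdgfra, -0.11 to 0.78 for Postn, -0.35 to 0.64 for Tbx18, -0.030 to 0.41 for Tcf15, -0.59 to 0.56 for Twist1 and -0.72 to 0.26 for Twist2. The causes of these changes were not tested. Signal over background limits the dim genes, for which detection calls were not used here.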
